A study of Homo sapiens with 6 samples.

Results

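The 10 genes described here are NF-kB feedback genes and cytokine genes, chosen by name from a written list and found by matching the Ensembl IDs of the count tables to symbols: NFKBIA, NFKBIZ, TNFAIP3, NFKB1, NFKB2, RELB, BIRC3, LIF, IL11 and CXCL8. All 10 were matched, out of 60676 gene IDs, and all 10 were abundant enough to be tested, out of 15577 genes tested. The transcripts come from HEK293A, a cell line that grows attached and derives from HEK293 human embryonic kidney cells. There were 3 RNA-seq libraries from cells given 20 nM VT01454 for 2 h and 3 from cells given DMSO, the vehicle. The labels name VT01454 by its code alone, in a series on PITP (phosphoinositol transfer protein) and the Hippo pathway. All 6 libraries come from 1 cell line and 1 time. The question for these genes is which of them HEK293A cells express and whether NF-kB output is part of the early response to the compound.

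NF-kB is a family of dimeric transcription factors, built from RELA, REL, RELB and the products of NFKB1 and NFKB2, that is held in the cytoplasm by inhibitors of the IkB family. When the IkB kinases mark an inhibitor for destruction, the dimers enter the nucleus and bind kB elements in DNA. Among their fastest targets are their own inhibitors, so the transcripts of NFKBIA and TNFAIP3 are widely used as readouts of recent NF-kB activity. LIF and IL11 encode cytokines of the IL-6 family, which signal through the shared receptor subunit gp130, and CXCL8 encodes a neutrophil-attracting chemokine that is not a member of that family; all 3 are known targets of AP-1 or NF-kB in stimulated cells.

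The kB elements of the feedback genes are shown first because they are the sequence feature that the feedback genes are known for. RefSeq promoter windows (GRCh38.p14, 250 bases before to 50 bases after a gene start) were found for 8 of the 10 genes, as 12 windows. RELB and LIF had no window, so nothing is said here of their promoters. The kB consensus, searched on both strands, was present in 8 of these 12 windows, against 5.91% of the 35116 windows of all genes, and the 6 genes with a match were all feedback genes. Since the genes were listed as known NF-kB targets, that share is a description of the list and no independent finding. Each line gives 40 bases on the gene's own strand with 1 kB match in capitals: NFKBIA at chr14:35404806-35404845 (−), TNFAIP3 at chr6:137867177-137867216 (+), NFKBIZ at chr3:101827752-101827791 (+), NFKB1 at chr4:102501295-102501334 (+), NFKB2 at chr10:102394485-102394524 (+) and BIRC3 at chr11:102317270-102317309 (+).
NFKBIA: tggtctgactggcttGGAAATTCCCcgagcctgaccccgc
TNFAIP3: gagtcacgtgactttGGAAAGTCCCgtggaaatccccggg
NFKBIZ: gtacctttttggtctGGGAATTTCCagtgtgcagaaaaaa
NFKB1: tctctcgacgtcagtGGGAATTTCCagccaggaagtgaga
NFKB2: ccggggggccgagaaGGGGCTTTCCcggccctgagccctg
BIRC3: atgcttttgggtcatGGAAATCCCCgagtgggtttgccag
Counted from the RefSeq start that defines each window, the matches shown began 81 bases upstream in NFKBIA, 67 in TNFAIP3, 223 in NFKBIZ, 49 in NFKB1, 78 in NFKB2 and 199 in BIRC3. The gene spans given with the values below are from GENCODE, whose spans of TNFAIP3 and NFKB2 begin further upstream, so that the matches shown for both lie inside those spans. NFKBIZ and NFKB1 share the same 10 letters.

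By the motifs searched, the cytokine genes that had a window differed from the feedback genes that had one. IL11 and CXCL8 held no match to the kB consensus, and each held 1 match to the AP-1 motif TGANTCA, which was in 7.71% of all windows and in no window of a feedback gene. The lines give 37 bases with that match in capitals, for CXCL8 at chr4:73740417-73740453 (+) and IL11 at chr19:55370538-55370574 (−).
CXCL8: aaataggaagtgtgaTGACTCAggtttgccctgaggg
IL11: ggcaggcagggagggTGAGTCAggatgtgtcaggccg
The CArG box, the element bound by SRF, was in 0 of the 12 windows, against 1.29% of all windows. For comparison, 16 of 25 listed immediate early genes had a window; the CArG box was present in EGR1, EGR2 and SRF, the kB consensus in SRF and TGANTCA in none. NFKB2 held 5 matches to the kB consensus in its windows, of which 2 overlap. A match describes letters and not binding in these cells, and no match says only that these letters are absent from the window.

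Nothing in the labels tells whether cultures were grown separately for each library, so a p-value here reflects the scatter among these libraries and may be technical. In addition, 17 genes near 0 in exactly 2 or 4 libraries sort the 6 libraries into pairs that do not follow the groups: compound 2 with compound 3, compound 1 with vehicle 3, and vehicle 1 with vehicle 2. Only the pair of compound library 1 and vehicle library 3 holds both groups, and in the other pairs the pair and the treatment cannot be told apart. A model with a term for these pairs therefore takes the treatment difference from compound library 1 against vehicle library 3 alone. Without compound library 1 or vehicle library 3 no pair holds both groups, so pair and treatment are then fully confounded. This limit applies to every value given below with either of these libraries left out. Markers of leukocytes, a usual source of these cytokines, were near 0: PTPRC, CD3E, MS4A1, CD68 and AIF1 had 0 counts in every library, and the summed level of all 10 markers ran from 0.940 to 1.45 CPM with VT01454 and from 1.07 to 1.32 CPM with DMSO. Overlap of these markers with other annotated genes, which can lower a count, was not checked. Markers of fibroblasts and endothelium, which can also make these cytokines, summed to 27.8 to 39.1 CPM with VT01454 and 30.3 to 44.1 CPM with DMSO over 10 genes, led by COL1A1 with means of 19.3 CPM and 21.8 CPM, and none of the 6 tested passed. Their part in the results was not tested. The keratin gene KRT8, reported in HEK293 lines, averaged 922 CPM with VT01454 and 963 CPM with DMSO, while the kidney factor genes PAX2, PAX8 and LHX1 averaged below 1 CPM. CPM are counts scaled to library size, here with TMM factors. In bulk RNA, fewer cells that express a gene and less of its RNA per cell cannot be told apart.

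All 10 genes were expressed, most of them at a low level. NFKB1, NFKBIA and NFKB2 averaged at least 10 CPM, and the other 7 averaged down to 2.38 CPM. Divided by exonic length, the order was NFKB1 with 10.2 CPM per kb, NFKBIA with 9.52, NFKB2 with 5.07, TNFAIP3 with 1.26, RELB with 1.13, LIF with 1.08, CXCL8 with 1.04, IL11 with 0.985, NFKBIZ with 0.775 and BIRC3 with 0.416. On this per-length scale NFKB1 stood at percentile 70.4 of all tested genes, TNFAIP3 at 29.6 and BIRC3 at 14.5. NFKB1 and NFKBIA overlapped between libraries, as did each neighbouring pair from TNFAIP3 to NFKBIZ, so their order is within the spread; NFKB2 stood apart from both neighbours and BIRC3 lay below NFKBIZ in all 6 libraries. Raw counts ran from 26 for IL11 in vehicle library 2 to 1822 for NFKB1 in compound library 1, so the low members carry a large counting error.

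**Figure D1:**
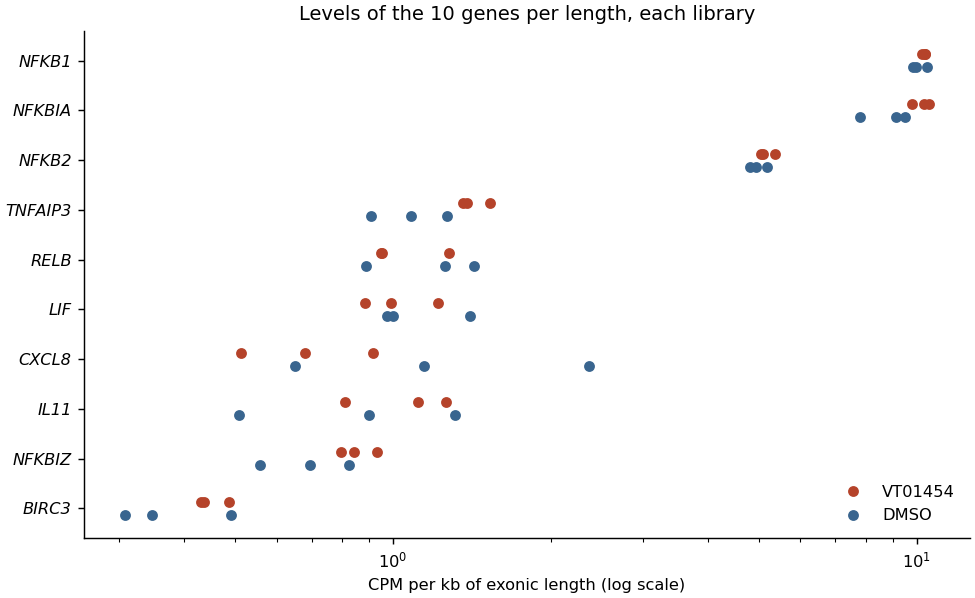
Level of each of the 10 genes in CPM per kb of exonic length, on a log axis, with 1 point per library for VT01454 and for DMSO (3 each). NFKB1, NFKBIA and NFKB2 average 5.07 to 10.2 CPM per kb, and the other 7 genes average 0.416 to 1.26, with 1 DMSO library of CXCL8 at 2.37.

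None of the 10 genes passed the test for a difference between VT01454 and DMSO (edgeR quasi-likelihood test, adjusted p from 0.232 to 0.832). Across all tested genes 1.89% passed, 1.27% as higher and 0.616% as lower. At an unadjusted p below 0.05 there were 2 of the 10, TNFAIP3 and NFKBIA, where 14.4% of all tested genes stood below that value; DESeq2 and limma-voom also called 0 of the 10 and had 3 and 2 below it. The 10 log2 fold changes had a median of 0.13, with 7 above 0, beside a median of −0.0073 over all tested genes, of which 48.4% were above 0. The compound and vehicle libraries did not overlap for 2 of the 10 genes, both higher with VT01454, where 11.3% of all tested genes were higher without overlap; none of the 10 was lower without overlap, where 9.84% of all tested genes were.

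Among the 10 genes, NFKBIA and TNFAIP3 came closest to passing as higher, which does not extend to all inhibitors of the pathway. Other genes for IkB proteins, named after their values were seen, were NFKBIE, NFKBIB and NFKBID. NFKBIE was lower without overlap, as were 9.84% of all tested genes (fold 0.817, interval 0.680 to 0.982). NFKBIB and NFKBID had folds of 0.985 and 1.02, and none of these passed (adjusted p from 0.301 to 0.959, edgeR). NFKBIA (chromosome 14, 35401511 to 35404749) encodes IkB-alpha, the inhibitor that NF-kB resynthesises after each activation. It stood at 24.5, 23.2 and 25.1 CPM in compound libraries 1 to 3, against 21.7, 22.6 and 18.5 CPM in vehicle libraries 1 to 3. The groups did not overlap, with a gap of less than 1 CPM between the lowest compound and the highest vehicle library. Mean levels were 24.3 ± 0.960 CPM with VT01454 and 20.9 ± 2.16 CPM with DMSO (SD, n = 3 each). On the log2 scale the difference was 0.22 ± 0.09 (SE), which did not pass (adjusted p = 0.294, edgeR). The fold of 1.16 had a 95% interval of 1.02 to 1.33, not adjusted for the number of genes, so a rise of 1.5-fold or more lay outside it.

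TNFAIP3 (chromosome 6, 137867188 to 137883312) encodes A20, a ubiquitin-editing enzyme that shuts off signalling upstream of the IkB kinases. It had 6.98, 7.75 and 6.87 CPM in compound libraries 1 to 3 and 6.42, 4.59 and 5.46 CPM in vehicle libraries 1 to 3. All compound libraries lay above all vehicle libraries, and vehicle library 1 came closest to them. The log2 fold change of 0.39 ± 0.14 (SE) was the highest of the 10 and did not pass (adjusted p = 0.232, edgeR), with a fold of 1.31 and an interval of 1.06 to 1.62. An antisense gene that overlaps TNFAIP3, AL357060.1, had 6 to 15 counts per library, against 88 to 199 for TNFAIP3, and no source used here gives the strand setting of the counting.

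NFKBIZ (chromosome 3, 101827991 to 101861022) encodes IkB-zeta, a nuclear IkB protein that acts as a co-factor for secondary NF-kB targets. It stood at 4.98, 5.50 and 4.70 CPM in compound libraries, against 4.86, 3.29 and 4.10 CPM in vehicle libraries. The groups overlapped through vehicle library 1. The fold was 1.24 with an interval of 0.965 to 1.59 (adjusted p = 0.425, edgeR). BIRC3 (chromosome 11, 102317450 to 102339403), which encodes cIAP2, a ubiquitin ligase of the TNF receptor complex, had 3.23, 3.66 and 3.27 CPM with VT01454 and 2.31, 2.61 and 3.69 CPM with DMSO. Vehicle library 3 was the highest of the 6, and the fold of 1.17 had an interval of 0.868 to 1.57 (adjusted p = 0.636, edgeR).

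Among the subunit genes, NFKB1 and NFKB2 showed the tightest values of the set, and no subunit gene differed beyond the spread. NFKB1 (chromosome 4, 102501329 to 102617302), which encodes p105 and its product p50, had 63.9, 65.0 and 64.9 CPM in compound libraries and 61.5, 65.6 and 62.3 CPM in vehicle libraries. Its fold of 1.02 had an interval of 0.935 to 1.12 (adjusted p = 0.832, edgeR). NFKB2 (chromosome 10, 102394110 to 102402529), which encodes p100 and its product p52, stood at 22.7, 24.0 and 22.8 CPM with VT01454 and at 22.2, 23.2 and 21.5 CPM with DMSO. The groups overlapped in both genes, and the NFKB2 fold of 1.04 had an interval of 0.927 to 1.17 (adjusted p = 0.774, edgeR). RELB (chromosome 19, 45001430 to 45038198), the partner of p52, was lower in level and more scattered, at 2.88, 2.89 and 3.88 CPM with VT01454 and 4.34, 3.81 and 2.69 CPM with DMSO. The vehicle libraries held both the lowest and the highest value, and the fold was 0.895 with an interval of 0.655 to 1.22 (adjusted p = 0.760, edgeR).

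Of the cytokine genes, LIF and IL11 were scattered within both groups. LIF (chromosome 22, 30240447 to 30246851), the leukaemia inhibitory factor, had 4.84, 3.94 and 3.52 CPM with VT01454 and 3.96, 3.86 and 5.57 CPM with DMSO. Vehicle library 3 was the highest and compound library 3 the lowest, and the fold of 0.913 had an interval of 0.690 to 1.21 (adjusted p = 0.784, edgeR). IL11 (chromosome 19, 55364389 to 55370463), which encodes interleukin-11, had 2.98, 3.37 and 2.17 CPM with VT01454 and 2.41, 1.36 and 3.51 CPM with DMSO. The vehicle libraries held both its lowest and its highest value, and the fold of 1.15 had an interval of 0.744 to 1.78 (adjusted p = 0.784, edgeR). LIF turned to a log2 fold change of 0.069 without vehicle library 3, and IL11 to −0.067 without vehicle library 2.

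CXCL8 (chromosome 4, 73740506 to 73743716), which encodes interleukin-8, was the gene with the largest difference and the widest error. It stood at 1.54, 1.16 and 2.08 CPM in compound libraries 1 to 3, from 44, 29 and 51 counts, against 5.38, 2.61 and 1.48 CPM in vehicle libraries 1 to 3, from 114, 50 and 40 counts. Vehicle library 1 was far above every other library, and vehicle library 3 lay within the compound range. The log2 fold change of −0.97 ± 0.45 (SE) did not pass (adjusted p = 0.378, edgeR), and the fold of 0.512 had an interval of 0.251 to 1.04. Single libraries decided the size: it was −0.33 without vehicle library 1 (adjusted p = 0.737) and −1.33 without vehicle library 3, where it passed (adjusted p = 0.0197). It also passed without a count filter (adjusted p = 0.00825), and over all alternatives the adjusted p ran from 0.00825 to 0.997.

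**Figure D2:**
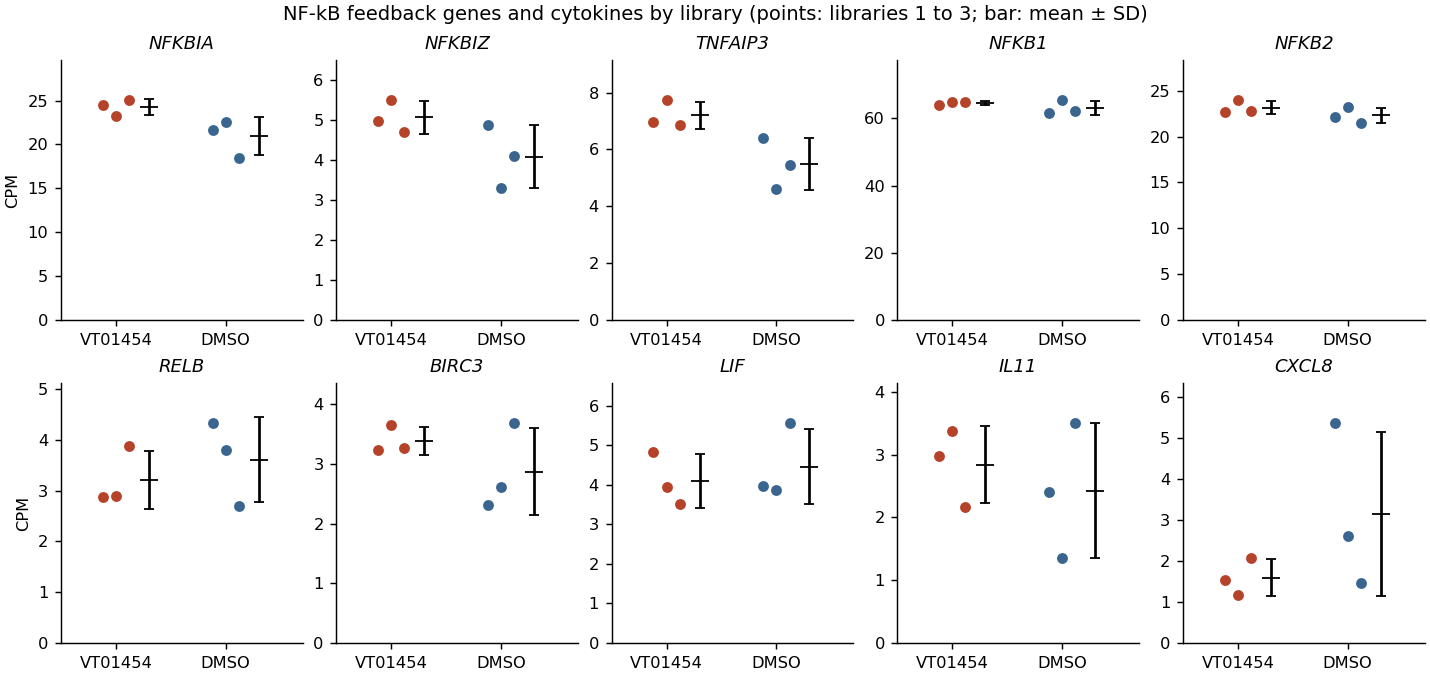
CPM of each gene in each library, with VT01454 on the left and DMSO on the right of each panel (points are libraries 1 to 3, bars the mean ± SD, each axis from 0). The compound and vehicle points are separate for NFKBIA and TNFAIP3 and overlap for the other 8 genes.

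Within the pair that holds both groups, compound library 1 against vehicle library 3, the ratio was 1.32 for NFKBIA, 1.28 for TNFAIP3 and 1.22 for NFKBIZ, beside folds over all libraries of 1.16, 1.31 and 1.24. The CXCL8 ratio in that pair was 1.05, against 0.512 over all libraries. The ratios of the other 6 genes in the pair ran from 0.851 to 1.07. With a term for the library pairs in the model none of the 10 genes passed, and the direction turned for RELB, BIRC3, IL11 and CXCL8. That model takes the treatment difference from this same pair, so it restates these ratios and is no second check.

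Immediate early genes served as the comparison for size, since they are the transcripts that growth factors raise within the hour. Of 25 listed, 20 were higher and 1 was lower at the same threshold, where 1.27% and 0.616% of all tested genes were. Their median log2 fold change was 0.90, or 1.86-fold. The lower gene, CCN1, a matricellular protein gene and known target of the Hippo effector YAP, is named after its values were seen; it averaged 139 CPM with VT01454 and 204 CPM with DMSO. EGR3 had 27.4, 24.6 and 23.5 CPM in compound libraries and 0.991, 1.25 and 0.517 CPM in vehicle libraries, and DUSP5, JUN and IER2 rose 3.96-fold, 1.90-fold and 2.14-fold (adjusted p = 8.60e-07, 1.71e-06 and 2.56e-06, edgeR). All 10 NF-kB and cytokine genes had an upper 95% limit below that median, the highest being 1.78-fold for IL11 and 1.62-fold for TNFAIP3. For 6 of the 10 the upper limit was below 1.5-fold, and for NFKBIA, NFKB1, NFKB2 and LIF the whole interval lay within 1.5-fold in either direction. Both lists were chosen with results of these data known, and the difference between the lists was not tested.

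**Figure D3:**
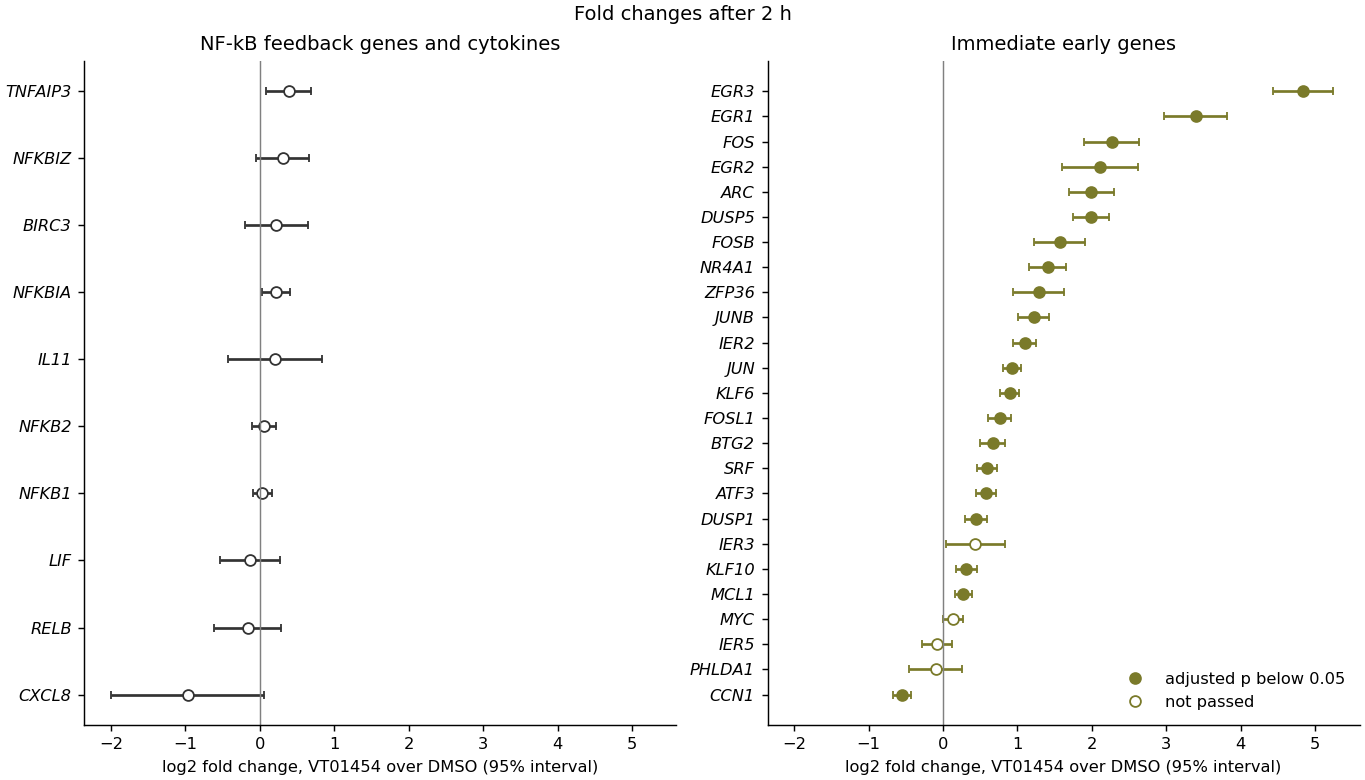
Log2 fold change, VT01454 over DMSO, with its 95% interval, for the 10 NF-kB and cytokine genes (left) and the 25 immediate early genes (right); filled points passed at an adjusted p below 0.05. None of the 10 points on the left is filled and every upper limit is below 0.90, while 21 of 25 points on the right are filled.

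Most genes of the NF-kB machinery did not pass, with 1 rise and 1 fall. Of 46 listed subunits, inhibitors, kinases, adaptors and receptors 42 were tested; 1 was higher, 1 lower and 40 did not pass, with a median log2 fold change of −0.0090. At an unadjusted p below 0.05 there were 12 of the 42, beside 14.4% of all tested genes. BCL10, the adaptor that joins CARD scaffolds to MALT1 and so to the IkB kinases, had 36.6, 37.0 and 37.4 CPM in compound libraries, against 26.5, 28.2 and 25.3 CPM in vehicle libraries. The groups were far apart, and the rise of 1.39-fold (log2 0.48 ± 0.07, SE; adjusted p = 0.00336, edgeR) passed with each library left out, though not with a term for the library pairs (0.53, adjusted p = 0.129). MAP3K14, which encodes NIK, the kinase of the noncanonical branch that processes p100, stood at 18.95, 21.17 and 19.95 CPM with VT01454 and 25.66, 24.89 and 25.47 CPM with DMSO. It fell 1.27-fold (−0.34 ± 0.08, adjusted p = 0.0455). That call was lost when compound library 1, 2 or 3 or vehicle library 1 was left out (adjusted p of 0.259, 0.136, 0.246 and 0.203), with library pairs (adjusted p = 0.407) and with limma-voom (adjusted p = 0.0518), while the log2 fold change stayed between −0.43 and −0.30. In compound library 1 over vehicle library 3, the comparison that the library-pair term rests on, the ratio was 1.45 for BCL10 and 0.744 for MAP3K14. XIAP, a relative of BIRC3, was 1.21-fold higher and did not pass (adjusted p = 0.0632), though it passed without vehicle library 2 or 3 (adjusted p = 0.0331 and 0.00284), with DESeq2 and without a count filter. RELA, the main activating subunit, named here after its values were seen, averaged 128 ± 4.19 CPM with VT01454 and 129 ± 3.06 CPM with DMSO (adjusted p = 0.973). Without vehicle library 3 the list had 9 higher and 2 lower members, and without vehicle library 2 it had 2 higher.

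Most other reported NF-kB targets were too low to test or did not pass. Of 40 listed, 39 were matched and 23 were tested. Of these 1 was higher, none was lower in edgeR, DESeq2 or limma-voom, and the median log2 fold change was 0.018. At an unadjusted p below 0.05 there were 6 of the 23, beside 14.4% of all tested genes. SAT1, which encodes an enzyme of polyamine breakdown, had 102, 97.3 and 97.1 CPM in compound libraries, against 73.1, 87.0 and 66.7 CPM in vehicle libraries. Its rise of 1.31-fold (adjusted p = 0.0369, edgeR) was past the threshold in 8 of 14 alternatives, with a log2 fold change of 0.30 to 0.61 over all of them (0.39 as reported). The call was lost when vehicle library 1 (adjusted p = 0.259) or a compound library (adjusted p from 0.165 to 0.195) was left out, and with library size alone (adjusted p = 0.0521). It was also lost with library pairs (adjusted p = 0.0734), which rest on compound library 1 against vehicle library 3, a ratio of 1.53. PTGS2, which encodes cyclooxygenase-2, was 2.83-fold higher and did not pass (1.51, 0.643 and 1.35 CPM with VT01454, 0.566, 0.157 and 0.480 CPM with DMSO; adjusted p = 0.123). It passed without a count filter (adjusted p = 0.00517). IER3, also on the immediate early list, was 1.35-fold higher and did not pass (adjusted p = 0.304). The 16 matched genes below the count filter had at most 12 counts in any library, and TNF and CSF2 had 0 in all 6, which allows up to 3 counts per library or 0.104 to 0.157 CPM, for counting error only. CCL5 and PSMB9 were also at 0, but other annotated genes overlap them, PSMB9 with TAP1 on the opposite strand, and reads over both genes may not have been counted, so their 0 sets no limit. The same holds for TAP1, which lies within PSMB9 and had 1 count, in compound library 1. Without vehicle library 3, 2 of the list were higher.

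On the receiving side of LIF and IL11, receptor transcripts did not pass, and SOCS3, 1 of the feedback inhibitor genes, fell. LIFR, the LIF receptor, averaged 193 ± 10.01 CPM with VT01454 and 165 ± 32.9 CPM with DMSO (adjusted p = 0.456, edgeR), and IL6ST, which encodes gp130, 105 ± 3.51 CPM and 86.4 ± 15.9 CPM (adjusted p = 0.282). Both passed without vehicle library 3 (adjusted p = 0.00530 and 0.0187), where no library pair holds both groups, and without a count filter. With library pairs LIFR turned to a log2 fold change of −0.14. IL11RA was low, at 1.88 ± 0.192 CPM with VT01454 and 1.68 ± 0.293 CPM with DMSO (adjusted p = 0.773). Of 26 genes of this family, its receptors and JAK-STAT3 signalling 21 were tested. None was higher in edgeR, DESeq2 or limma-voom, 1 was lower, and 4 of the 21 had an unadjusted p below 0.05, beside 14.4% of all tested genes. The median log2 fold change was 0.14, with 17 of 21 above 0, beside 48.4% of all tested genes. The gene that fell was SOCS3, the inhibitor that STAT3 induces to end gp130 signalling: 13.4, 12.01 and 13.7 CPM in compound libraries, against 23.1, 23.5 and 18.1 CPM in vehicle libraries. Its fall of 1.65-fold (−0.72 ± 0.11, adjusted p = 0.00358, edgeR) did not pass without vehicle library 1 (adjusted p = 0.0754) or with a term for the library pairs (−0.44, adjusted p = 0.586). That term rests on compound library 1 against vehicle library 3, where the ratio was 0.739. BCL6, a transcriptional repressor gene, and JAK2, a kinase gene of the pathway, were 1.49-fold and 1.26-fold higher and did not pass (adjusted p = 0.127 and 0.135); BCL6 passed without vehicle library 3 (adjusted p = 0.0224) and without a count filter. Without vehicle library 3, 5 genes of this list were higher. SOCS1 and SOCS2, relatives of SOCS3 named after their values were seen, had folds of 1.81 and 0.948 and did not pass (adjusted p = 0.384 and 0.831, edgeR). SOCS1 was low, with 42 counts over the compound libraries and 20 over the vehicle libraries.

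**Figure D4:**
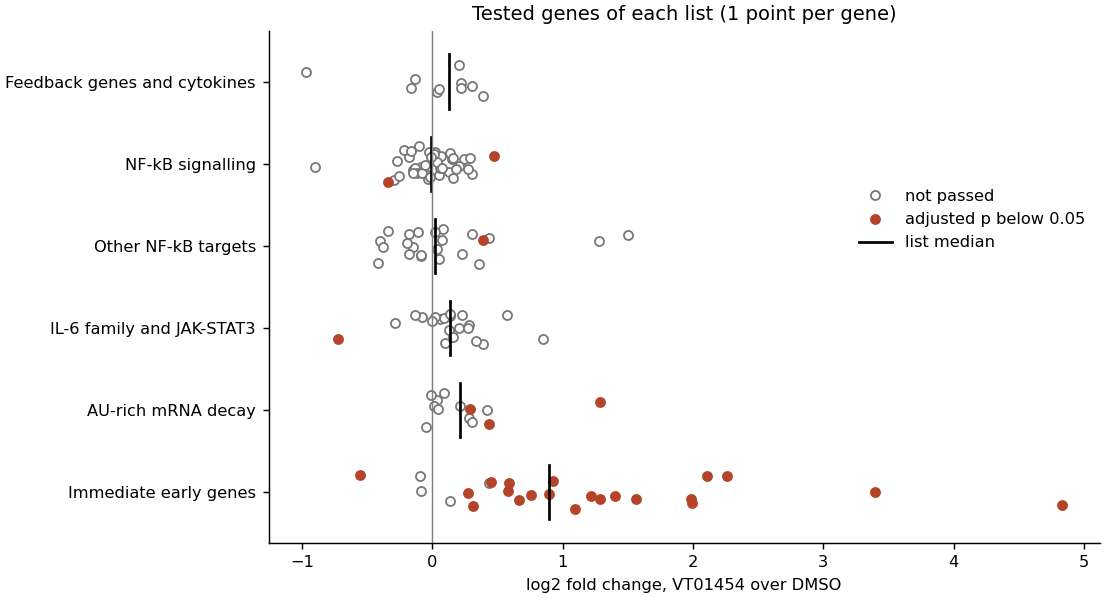
Log2 fold change, VT01454 over DMSO, of each tested gene in 6 lists (1 point per gene, filled at an adjusted p below 0.05; the black line is the list median). The median is 0.13 for the 10 feedback and cytokine genes, −0.0090 for NF-kB signalling, 0.018 for other NF-kB targets, 0.14 for the IL-6 family, 0.22 for the AU-rich element proteins and 0.90 for the immediate early genes.

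**Figure D5:**
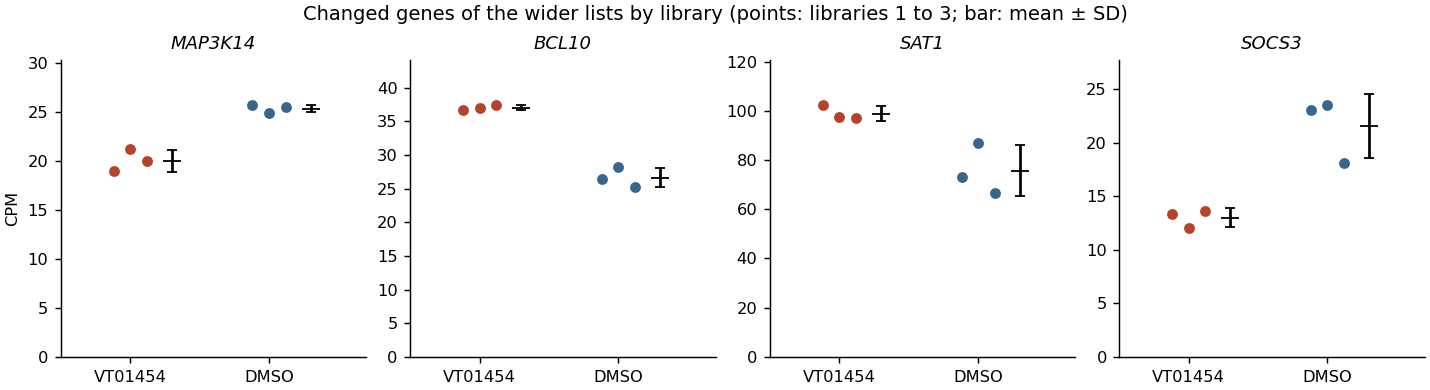
CPM in each library of the 4 genes that passed among the NF-kB signalling, other NF-kB target and IL-6 family lists, with VT01454 on the left and DMSO on the right (points are libraries 1 to 3, bars the mean ± SD). The groups are separate for all 4, with BCL10 and SAT1 higher and MAP3K14 and SOCS3 lower with VT01454.

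The 3 cytokine mRNAs also hold the core of AU-rich elements, which mark short-lived transcripts for decay, as do NFKBIA, TNFAIP3 and BIRC3. In the 3′ UTR of 1 GENCODE release 29 transcript per gene, the core TATTTAT was found 5 times in LIF, 7 times in IL11 and 4 times in CXCL8, in UTRs of 3204, 1618 and 1252 bases. At least 3 copies were present in 6.05% of 12616 tested protein-coding genes, whose median UTR length was 1074 bases. NFKBIA, TNFAIP3 and BIRC3 held 2 copies each, and NFKBIZ, NFKB1, NFKB2 and RELB held 0. The densest stretch of each cytokine UTR is shown with the core in capitals, at bases 645 to 674 of the CXCL8 UTR, 36 to 64 of the IL11 UTR and 1059 to 1088 of the LIF UTR.
CXCL8: aaccTATTTATTATTTATgTATTTATttaa
IL11: cagatctTATTTATTTATTTATttcagta
LIF: ttcTATTTATtatgatatccTATTTATatt
Of 13 listed genes for proteins that bind or cut such elements or related stem-loops, 3 were higher, where 1.27% of all tested genes were. None was lower in edgeR, DESeq2 or limma-voom. At an unadjusted p below 0.05 there were 7 of the 13, beside 14.4% of all tested genes. ZFP36, which encodes tristetraprolin, a protein that recruits the deadenylase to AU-rich elements, had 6.14, 7.47 and 5.64 CPM with VT01454 and 2.60, 2.77 and 2.55 CPM with DMSO (2.44-fold higher, adjusted p = 7.77e-04, edgeR), and passed with each library left out but not with library pairs (adjusted p = 0.162), with a log2 fold change of 1.17 to 1.37 over all alternatives (1.28 as reported). RC3H1, which encodes Roquin-1, and ZFP36L1, a tristetraprolin relative, rose 1.36-fold and 1.22-fold (adjusted p = 0.0490 for both), and both calls were lost when vehicle library 1 or any compound library was left out (adjusted p from 0.129 to 0.296). Without vehicle library 3, 6 of the 13 were higher. Whether these rises bear on the cytokine transcripts was not tested.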

How the data were processed

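RNA from 3 VT01454 and 3 DMSO samples of HEK293A cells was sequenced. The authors deposited unnormalized counts for each Ensembl gene ID, with a table for each library; per the submitters' processing notes, HISAT2 2.2.1 and HTSeq 0.9.1 were used on hg38. No source used here gives their annotation release, strand setting or filters. Library totals ran from 19126039 to 28880374 counts, so 1 count was worth 0.0346 to 0.0523 CPM. Symbols were matched to 60357 of 60676 IDs (SOD2 was not matched); coordinates and exonic lengths come from GENCODE release 29 on the same build. The test was edgeR 4.0.16 in R 4.3.3: filterByExpr, TMM, robust quasi-likelihood F-test, two-sided, Benjamini-Hochberg over all 15577 tested genes, called at an adjusted p below 0.05. The SE was taken as |log2 fold change| divided by the root of F, and 95% intervals use the moderated degrees of freedom. The pipeline was tested on simulated data. Alternatives used DESeq2 1.42.0, limma 3.58.1 (voom), other scalings and filters, a replicate block, stricter thresholds and each library left out; the term for library pairs was added after seeing the data. Replicate numbers did not pair the libraries.

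The 10 genes, the other lists and their tests were chosen with earlier results of these data known. Named genes are all 10; of each other list the called genes (up to 4 by smallest p) or the 3 of smallest p; LIFR, IL6ST and IL11RA; and the 5 genes most alike in pattern to the gene of smallest p. Others are said to be chosen after their values were seen, as were the genes listed at 0 and the marker genes.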

Additional observations from a re-analysis of the deposited data

How the results depend on the processing

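Over the alternatives, no feedback or cytokine gene was called higher; 1, CXCL8, was called lower without a count filter and without vehicle library 3. All genes called higher and lower were 198 and 96, with 508 and 205 without a count filter, 94 and 31 at an adjusted p below 0.01, 60 and 32 at 1.5-fold or more, 40 and 10 with a term for library pairs, and 73 to 1170 and 20 to 636 with a library left out. NF-kB signalling (1 and 1) had 2 and 2 without a count filter, 2 higher in DESeq2, 0 lower in limma-voom or at an adjusted p below 0.01, 0 and 0 with library pairs or at 1.5-fold, and 1 to 9 and 0 to 2 with a library left out. Other NF-kB targets (1 higher) had 0 with library size alone, library pairs or either stricter threshold, 2 without a filter, and 0 to 2 with a library left out. IL-6 family genes (0 and 1) had 3 higher without a filter, 0 lower with library pairs, and 0 to 5 and 0 to 1 with a library left out. Immediate early genes (20 and 1) had 15 and 0 with library pairs, 18 higher at an adjusted p below 0.01, 16 and 0 at 1.5-fold, and 17 to 20 and 1 to 2 with a library left out. AU-rich element genes (3 higher) had 1 with library size alone, limma-voom or either stricter threshold, 6 without a filter, 5 in DESeq2, 0 with library pairs and 1 to 6 with a library left out. With library pairs the log2 fold change turned to 0.095 for RELB, −0.19 for BIRC3, −0.23 for IL11, 0.064 for CXCL8 and −0.14 for LIFR. With a library left out it ran from −0.27 to 0.069 for LIF and −0.067 to 0.58 for IL11, and for RELA from −0.028 to 0.015, with 0.0081 without a count filter. The causes were not tested. Leaving out a library or adding a term leaves fewer degrees of freedom, and the term for library pairs takes the treatment difference from compound library 1 against vehicle library 3 alone.

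Deviations of libraries with the same replicate number correlated at −0.070, 0.028 and −0.014, so the numbers share only a number; with the replicate block there were 0 feedback or cytokine genes called, 0 lower NF-kB signalling genes, 2 higher targets, with PTGS2 added (adjusted p = 0.0244), and 1 higher IL-6 family gene, BCL6 (adjusted p = 0.0440), while MAP3K14 and ZFP36L1 no longer passed (adjusted p = 0.0583 and 0.0574). Low counts, down to 26 in a library, and scatter between libraries both limit the precision. Without vehicle library 3 the genes called went to 1806, against 294, in a setting where no library pair holds both groups. Treatment and library pair cannot be told apart in those calls.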

Other observations

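IL1R1 and CXCL1, chosen after their values were seen, were low transcripts with lower values in the compound libraries. IL1R1, the interleukin-1 receptor gene, had 1.79, 1.45 and 1.10 CPM in compound libraries and 2.22, 3.55 and 2.44 CPM in vehicle libraries. The groups did not overlap, as for 9.84% of all tested genes in that direction, and the log2 fold change of −0.90 ± 0.25 (SE) did not pass (adjusted p = 0.109, edgeR; 0.0201 without a count filter and 0.0382 without vehicle library 3, over a range of 0.0201 to 0.939). CXCL1, a chemokine gene near CXCL8 on chromosome 4, had 0 counts in all 3 compound libraries and 5, 5 and 1 counts in vehicle libraries 1 to 3. The vehicle libraries with the higher CXCL1 counts were also those with the higher CXCL8 levels. These counts lie near the 3 that a count of 0 allows, and no fold is given.

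The genes whose pattern over the 6 libraries was most like that of TNFAIP3, the gene of smallest p among the 10, were STK35, ALKBH1, NFE2L1, C2CD3 and HIC2, with Pearson r of log2(CPM + 1) from 0.985 to 0.997 among 11932 protein-coding genes. The 6 points share 2 groups and the library pairs. None of the 5 passed the test, with folds of 1.08 to 1.19 (adjusted p from 0.166 to 0.404, edgeR), and NFE2L1 averaged 215 ± 6.84 CPM with VT01454 and 199 ± 9.77 CPM with DMSO.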
